A study of Mus musculus with 6 samples.

Results

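Eicosanoid synthesis genes, which encode the enzymes that make leukotrienes and prostaglandins from arachidonic acid and the enzyme that starts prostaglandin breakdown, were described in RNA from mouse small intestinal crypts. The 10 genes were chosen by symbol from the 17526 genes of the deposited table, and all 10 were listed there. There were 3 libraries from knockout mice (VKO), in which the intestinal epithelium lacks Fpr2, and 3 from control mice that carry floxed Fpr2 and are labelled WT. Fpr2 encodes a receptor for formylated peptides. Strain, age, sex, Cre driver and the number of mice are not in the labels, so the spread that p-values here rest on may be a technical one. Values for Fpr2 itself were not analysed here and could not serve to check the genotypes.

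Arachidonic acid is cut from membrane phospholipids by phospholipase A2. Along the leukotriene arm, 5-lipoxygenase (Alox5) and its helper protein (Alox5ap) turn it into leukotriene A4, which Ltc4s converts to leukotriene C4 and Lta4h to leukotriene B4. Along the prostaglandin arm, the cyclooxygenases Ptgs1 and Ptgs2 make prostaglandin H2, from which Hpgds makes prostaglandin D2 and Ptges makes prostaglandin E2, and Hpgd inactivates the products. In the mouse small intestine, tuft cells, the rare chemosensory cells of the epithelium, are known to express much of the machinery for cysteinyl leukotrienes and prostaglandin D2, and blood cells express it too. Lipoxins, which 5-lipoxygenase helps to make, are reported ligands of the human receptor FPR2.

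Total estimated counts ran from 16542933 to 16859902 in the knockout libraries and from 11108511 to 16695304 in the floxed controls. The crypt base marker list, led by the lysozyme gene Lyz1, summed to 13400 to 21900 CPM (read counts scaled to a common library size) in the knockouts and 38100 to 76600 CPM in the floxed controls, so crypt transcripts were abundant in every library. Fibroblast markers summed to at most 1.69 CPM in the knockouts and 2.18 CPM in the floxed controls, and all 6 in the table were too low for the test. Floxed controls 1 and 3 stood apart from floxed control 2 and the knockouts on lymphocyte markers: the T cell and intraepithelial lymphocyte list summed to 52.7, 62.5 and 66.8 CPM in knockouts 1, 2 and 3, against 222, 60.5 and 181 CPM in floxed controls 1, 2 and 3. Results are therefore also given without floxed controls 1 and 3, a setting chosen after the data were seen that leaves 1 control library. Floxed control 2 was the lowest control for 8 of the 9 members tested, so for those 8 that choice fixes the direction of the shift, and the values are a description.

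The fitted knockout levels of the genes that make cysteinyl leukotrienes were 0.460 of the control level for Alox5, 0.488 for Alox5ap and 0.529 for Ltc4s, and that of Lta4h, which makes leukotriene B4, was 1.12. By edgeR's quasi-likelihood test, 0 of the 9 members tested had an adjusted p under 0.05, where 0.0155% of the 12943 genes tested did (0.00773% lower and 0.00773% higher in the knockouts). An unadjusted p under 0.05 with a lower knockout level was found for 4 members, Alox5, Alox5ap, Ltc4s and Hpgds, against 9.63% of all genes tested, and for 0 members with a higher one, against 4.09% (13.7% in either direction). DESeq2 called 2 members, Alox5 and Alox5ap, both lower in the knockouts, against 2.69% of its genes in either direction, 2.4% lower and 0.299% higher, and limma-voom called 0. The groups did not overlap for 3 members, Alox5, Alox5ap and Ltc4s, each lower in the knockouts, against 10.3% of all genes tested on that side, 6.99% on the other and 17.3% on either. The median log2 fold change of the members tested was -0.48, beside -0.013 over all genes tested, and 8 of the 9 were negative, against 51.9% of all genes tested. Single libraries moved these values: without floxed control 2 edgeR called 3 members, Alox5, Alox5ap and Hpgds, among 955 genes, with a median over the members of -0.78, and without floxed control 1 it called 0 members among 11 genes, with a median of -0.20.

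Alox5 (gene 11689, chr6:116410071-116461178 in GRCm38.p6) encodes 5-lipoxygenase, the enzyme that commits arachidonic acid to leukotrienes. It stood at 8.97, 4.51 and 5.77 CPM in knockouts 1, 2 and 3, against 17.8, 9.51 and 14.7 CPM in floxed controls 1, 2 and 3. The highest knockout, library 1, lay just under the lowest control, library 2. The means were 6.41 ± 2.30 CPM in the knockouts and 14.0 ± 4.20 CPM in the floxed controls (SD, n = 3 each), a log2 fold change of -1.12 ± 0.30 (SE) with a 95% interval from -1.79 to -0.45. Its adjusted p was 0.160 by edgeR and 0.0295 by DESeq2. The uncharacterised gene model Gm38880 overlaps Alox5 in the annotation, and the strand use of the kit is not stated, so reads of the 2 cannot be told apart.

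Alox5ap (gene 11690, chr5:149265004-149288153) encodes the membrane protein FLAP, which presents arachidonic acid to 5-lipoxygenase. It stood at 7.28, 5.79 and 5.43 CPM in the knockouts, against 14.1, 8.98 and 15 CPM in the floxed controls. Again every knockout lay below every control, with floxed control 2 nearest to them. The means of Alox5ap were 6.17 ± 0.980 CPM in the knockouts and 12.7 ± 3.24 CPM in the floxed controls (SD, n = 3 each), a log2 fold change of -1.04 ± 0.25 (SE; 95% interval -1.58 to -0.49). This was the member with the smallest p, ranked 147 of all genes tested, with an adjusted p of 0.130 by edgeR and 0.0191 by DESeq2. Alox5 and Alox5ap kept a like ratio to each other: their estimated counts stood at 1.23, 0.778 and 1.06 in the knockouts and at 1.26, 1.06 and 0.980 in the floxed controls.

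Ltc4s (gene 17001, chr11:50236461-50238532) encodes leukotriene C4 synthase, which joins glutathione to leukotriene A4. It stood at 4.01, 2.74 and 4.48 CPM in the knockouts, against 6.64, 5.25 and 9.45 CPM in the floxed controls. The groups did not overlap, and floxed control 3 was the highest of the 6 libraries. The log2 fold change was -0.92 ± 0.30 (SE; 95% interval -1.58 to -0.26), with an adjusted p of 0.218 by edgeR and 0.127 by DESeq2. Between 51 and 96 reads per library stand behind Ltc4s, so counting error alone is 10.2% to 14.0% of each value.

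Lta4h (gene 16993, chr10:93453396-93484896) encodes the hydrolase that makes leukotriene B4 from the same intermediate. It stood at 218, 206 and 225 CPM in the knockouts, against 169, 233 and 178 CPM in the floxed controls. The groups overlapped, with floxed control 2 above every knockout and floxed controls 1 and 3 below them. The log2 fold change of Lta4h was 0.16 ± 0.18 (SE; 95% interval -0.23 to 0.55; adjusted p = 0.744 by edgeR), an interval that lies above the estimates of the other 3 leukotriene genes. Set as a ratio of estimated counts within each library, which needs no scaling, Ltc4s over Lta4h was 0.0184, 0.0133 and 0.0199 in the knockouts and 0.0394, 0.0225 and 0.0531 in the floxed controls. All 3 knockouts lay below all 3 controls in this ratio, with p = 0.1 by an exact two-sided permutation test, which cannot go lower with 3 libraries a group, and 0.3 after Benjamini-Hochberg adjustment over the 15 ratios computed. Alox5ap over Lta4h was 0.0335, 0.0281 and 0.0242 in the knockouts and 0.0839, 0.0386 and 0.0841 in the floxed controls, also without overlap (exact permutation p = 0.1, adjusted p = 0.3). Alox5 over Lta4h was 0.0412, 0.0218 and 0.0257 in the knockouts and 0.106, 0.0408 and 0.0824 in the floxed controls, and here the groups overlapped, with knockout 1 above floxed control 2 (exact permutation p = 0.2, adjusted p = 0.375). The 6 ratios between members were chosen after the data were seen.

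**Figure D1:**
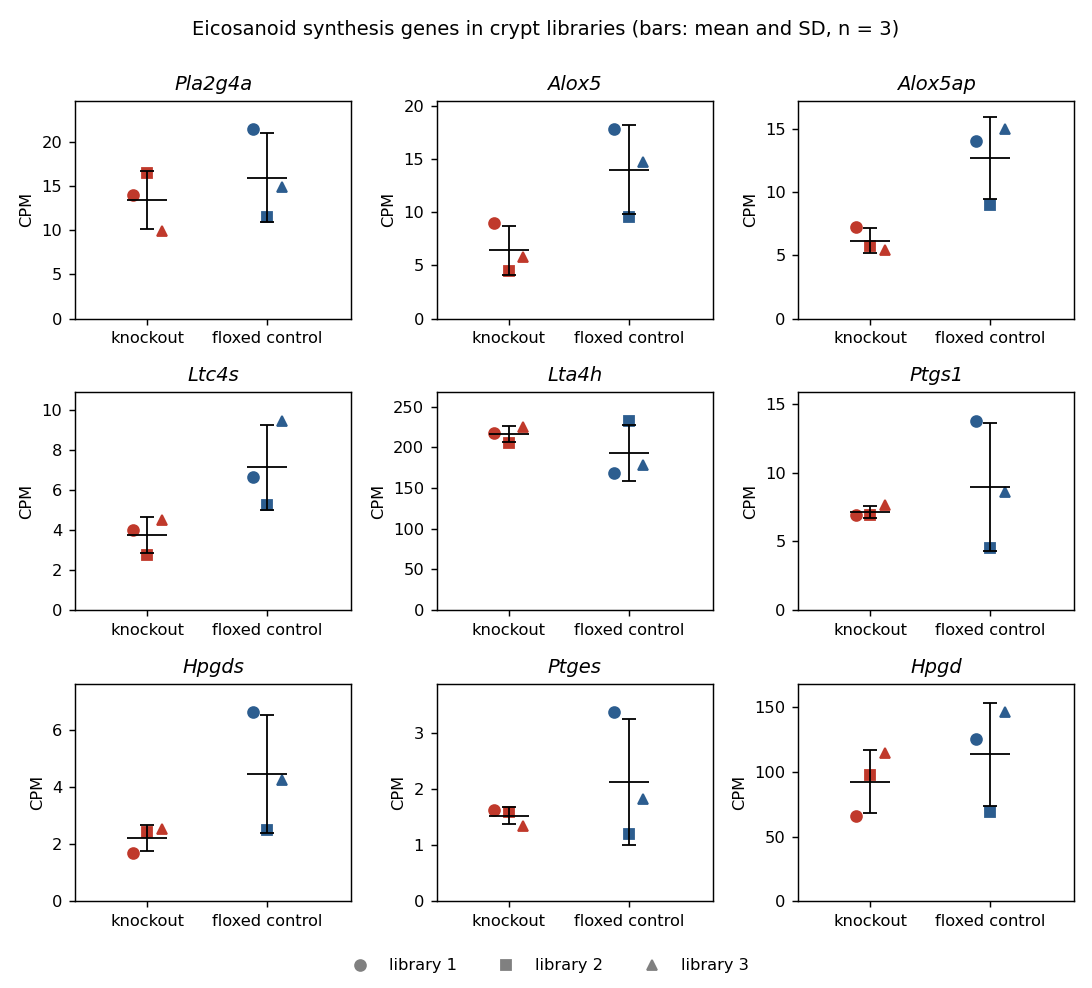
CPM of each of the 9 members tested (y axis, from 0) in the 3 knockout libraries and the 3 floxed control libraries, with a symbol for each library number and bars for the mean and SD. Alox5, Alox5ap and Ltc4s show no overlap between the groups, and floxed control 2 sits lowest of the controls for each member except Lta4h.

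**Figure D2:**
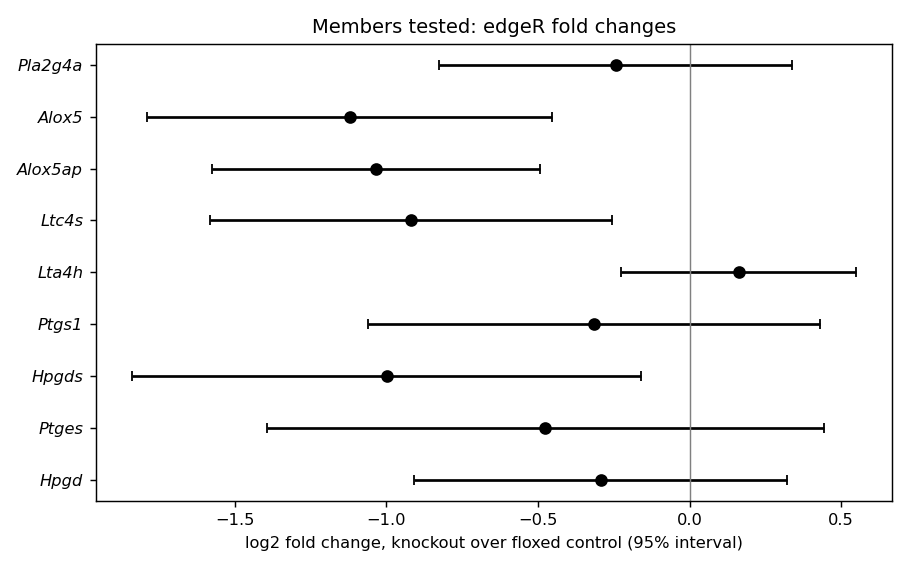
Log2 fold change of the 9 members tested, knockout over floxed control (x axis), from edgeR with 95% intervals. The intervals of Alox5, Alox5ap, Ltc4s and Hpgds lie below 0, from -1.84 to -0.16 for Hpgds, while those of the other 5 members span 0.

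Of the cyclooxygenases, Ptgs1 was present at a low level and Ptgs2 was at the limit of detection. Ptgs1 (gene 19224, chr2:36216742-36258593), the constitutive form, stood at 6.91, 6.90 and 7.64 CPM in the knockouts, against 13.8, 4.55 and 8.57 CPM in the floxed controls. The knockouts lay close together, inside the wide range of the controls. Its log2 fold change was -0.31 ± 0.34 (SE; 95% interval -1.06 to 0.43; adjusted p = 0.741 by edgeR), and it turned to 0.17 without floxed control 1 and to 0.72 without floxed controls 1 and 3. Ptgs2 (gene 19225, chr1:150100031-150108234), the inducible form, had 1, 2 and 0 estimated counts in knockouts 1, 2 and 3 and 0 in each floxed control. A count of 0 allows up to 0.168 CPM in knockout 3 and up to 0.262, 0.197 and 0.295 CPM in floxed controls 1, 2 and 3, taking 3 counts as the limit and counting error alone, so no fold is given and Ptgs2 was not tested.

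Hpgds (gene 54486, chr6:65117293-65144981) encodes the haematopoietic prostaglandin D synthase. It stood at 1.69, 2.44 and 2.53 CPM in the knockouts, against 6.62, 2.48 and 4.25 CPM in the floxed controls. Floxed control 2 lay within the range of the knockouts, and the other 2 controls lay above it. The log2 fold change of Hpgds was -0.999 ± 0.38 (SE; 95% interval -1.84 to -0.16), with an adjusted p of 0.278 by edgeR and 0.227 by DESeq2. It was -0.11 without floxed controls 1 and 3. Per Ptgs1 read, the estimated counts of Hpgds were 0.244, 0.353 and 0.331 in the knockouts and 0.478, 0.544 and 0.496 in the floxed controls. In this ratio floxed control 2 sat with the other controls, above every knockout (exact two-sided permutation p = 0.1, adjusted p = 0.3 over the 15 ratios). The divisor Ptgs1 was at its lowest in floxed control 2, at 4.55 CPM, while Hpgds itself lay inside the knockout range there. This ratio was chosen after the data were seen, so the place of floxed control 2 in it is a description.

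Ptges (gene 64292, chr2:30889471-30931020) encodes the inducible microsomal prostaglandin E synthase. It stood at 1.63, 1.6 and 1.35 CPM in the knockouts, against 3.38, 1.20 and 1.83 CPM in the floxed controls. Floxed control 2 was the lowest of all 6 libraries and floxed control 1 the highest. The log2 fold change was -0.48 ± 0.42 (SE; 95% interval -1.39 to 0.44; adjusted p = 0.673 by edgeR), and it turned to 0.054 without floxed control 1. The lowest library holds 18 reads of Ptges, a counting error of 23.4%, and 2 gene models overlap it in the annotation. Ptges over Ptgs1 was 0.235, 0.231 and 0.176 in the knockouts and 0.244, 0.262 and 0.213 in the floxed controls, ranges that overlap.

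Pla2g4a, which releases arachidonic acid, and Hpgd, which inactivates prostaglandins, stand at the start and the end of the pathway, and neither passed the test. Pla2g4a (gene 18783, chr1:149829618-149961290) encodes cytosolic phospholipase A2 alpha and stood at 14.0, 16.4 and 9.85 CPM in the knockouts, against 21.4, 11.5 and 14.9 CPM in the floxed controls. Its log2 fold change was -0.24 ± 0.26 (SE; 95% interval -0.83 to 0.34; adjusted p = 0.743 by edgeR), and it turned to 0.057 without floxed control 1. Hpgd (gene 15446, chr8:56294552-56321046) encodes 15-hydroxyprostaglandin dehydrogenase and stood at 65.8, 97.3 and 114 CPM in the knockouts, against 125, 68.8 and 146 CPM in the floxed controls. The log2 fold change of Hpgd was -0.29 ± 0.28 (SE; 95% interval -0.91 to 0.32; adjusted p = 0.703 by edgeR). Within each group Hpgd was lowest in knockout 1 and in floxed control 2, and so was the enterocyte marker list, at 1690 CPM in knockout 1 and 2470 CPM in floxed control 2; the part of enterocyte content in the Hpgd values was not tested. Pla2g4a and Ptgs2 are close on chromosome 1, with 139 kb between them, and Ptgs2 was at or near 0 where Pla2g4a was measured in every library.

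Compared between genes as CPM per kb of coding length, Hpgd and Lta4h stood far above the other members. Hpgd averaged 114 CPM per kb in the knockouts and 140 in the floxed controls, and Lta4h averaged 118 in the knockouts and 105 in the floxed controls. Their ranges over the 6 libraries, 81.6 to 181 for Hpgd and 92.0 to 127 for Lta4h, overlapped. Next came Alox5ap (12.8 CPM per kb in the knockouts and 26.3 in the floxed controls) and Ltc4s (8.31 in the knockouts and 15.8 in the floxed controls), whose ranges over the 6 libraries also overlapped. Pla2g4a, Hpgds, Alox5, Ptgs1 and Ptges averaged between 3.17 and 5.98 CPM per kb in the knockouts and between 4.65 and 7.45 in the floxed controls, and their ranges overlapped one another. The Ltc4s range, 6.08 to 21.0, also overlapped the range of each of these genes, so Ltc4s did not stand apart from them. The Alox5ap range, 11.2 to 31.0, lay above the ranges of these 5 genes on this scale, but only just above that of Hpgds, which reached 11.1. Divided instead by the longest coding transcript with its untranslated parts, Hpgds and Ptges, whose transcripts are long, stood lower, at 0.638 and 0.418 CPM per kb in the knockouts and 1.28 and 0.585 in the floxed controls, and Lta4h then stood above Hpgd in both groups.

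Tuft cell markers had lower mean levels in the knockouts, as did Alox5, Alox5ap and Ltc4s. Floxed control 2 lay among the knockouts on the summed markers, but above them on these 3 genes and on 10 of the single markers tested. All 20 markers of the list were in the table and 18 were high enough to test. Each of the 18 had a negative log2 fold change, against 51.9% of all genes tested, with a median of -0.999. By edgeR 0 passed and 15 were lower with p under 0.05 before adjustment, against 9.63% of all genes tested. DESeq2 called 5, each lower, against 2.4% of its genes on that side. The groups did not overlap for 10 of the 18, Pou2f3 among them, each lower in the knockouts, against 10.3% of all genes tested on that side. The summed level of the tuft markers was 168, 114 and 140 CPM in the knockouts, against 351, 162 and 306 CPM in the floxed controls. None of the markers was at 0 in every library, though Gnat3 and Il25 stayed under 1 CPM in each. Pou2f3, a transcription factor needed for tuft cells, stood at 8.07, 4.67 and 5.49 CPM in the knockouts, against 16.2, 9.24 and 14.6 CPM in the floxed controls. Dclk1 (log2 fold change -1.13 ± 0.37, adjusted p = 0.217 by edgeR) and Trpm5, the cation channel of taste signalling (-0.99 ± 0.28, adjusted p = 0.179 by edgeR), overlapped between the groups. Negative log2 fold changes were not particular to tuft markers. All 8 enteroendocrine, 6 goblet, 10 T cell and intraepithelial lymphocyte, and 6 B and plasma cell markers tested had them. So did the 2 mast cell and 2 endothelial markers tested. Positive were 1 of 7 enterocyte, 1 of 7 crypt base, 3 of 6 macrophage, 1 of 3 neutrophil and 2 of 3 smooth muscle markers. In bulk RNA, fewer cells of a type and less RNA per cell cannot be told apart.

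Per 100 CPM of summed tuft markers, the genes of cysteinyl leukotriene synthesis differed by about the spread between libraries or less. Alox5 stood at 4.48 ± 0.755 in the knockouts and 5.24 ± 0.544 in the floxed controls (SD, n = 3 each; exact two-sided permutation p = 0.3). Alox5ap stood at 4.44 ± 0.608 and Ltc4s at 2.67 ± 0.470 in the knockouts, against 4.82 ± 0.750 for Alox5ap and 2.74 ± 0.735 for Ltc4s in the floxed controls (exact permutation p = 0.6 for Alox5ap and 0.9 for Ltc4s). Hpgds stood at 1.65 ± 0.585 in the knockouts and 1.6 ± 0.257 in the floxed controls (exact permutation p = 1). The other 5 members tested had higher means in the knockouts on this scale. The divisor itself was lower in the knockouts, at 168, 114 and 140 CPM, against 351, 162 and 306 CPM in the floxed controls. A member that fell less than the markers therefore rises on this scale, and these ratios do not show a rise of the member. Ptgs1 stood at 4.12, 6.07 and 5.47 in the knockouts and 3.95, 2.80 and 2.80 in the floxed controls, with no overlap (exact permutation p = 0.1, the smallest possible, and 0.3 adjusted over the 15 ratios). Ptges stood at 0.968, 1.4 and 0.966 in the knockouts and 0.963, 0.736 and 0.597 in the floxed controls, with no overlap, though knockouts 1 and 3 lay just above floxed control 1 (exact permutation p = 0.1, adjusted p = 0.3). Lta4h averaged 157 ± 26.1 in the knockouts and 83.2 ± 52.3 in the floxed controls, Pla2g4a 9.95 ± 3.94 in the knockouts and 6.02 ± 1.12 in the floxed controls, and Hpgd 68.8 ± 25.7 in the knockouts and 41.9 ± 6.2 in the floxed controls (SD, n = 3 each; exact permutation p = 0.2, 0.2 and 0.3). With 3 libraries a group, none of these tests could reach 0.05.

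**Figure D3:**
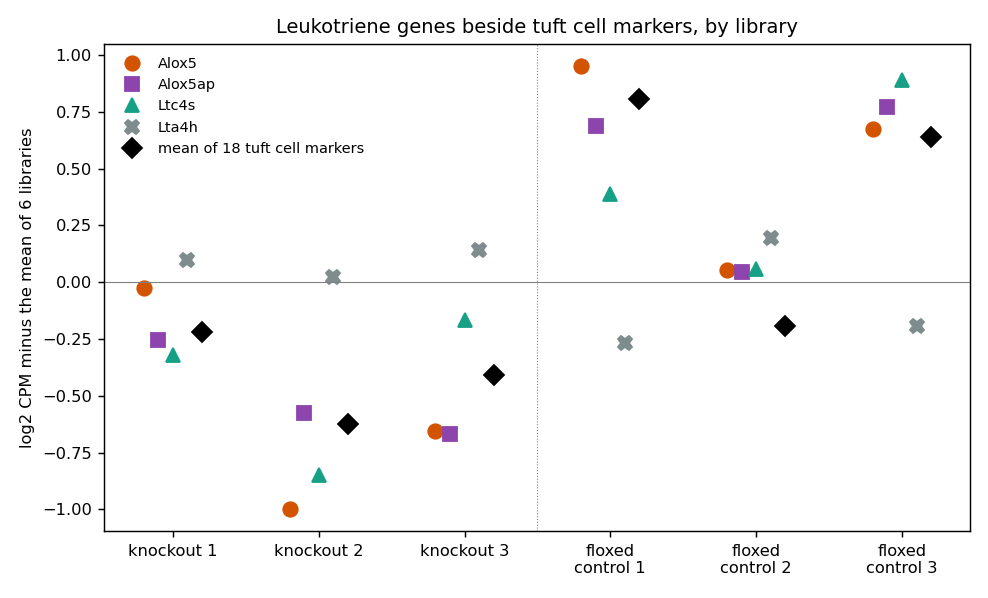
Log2 CPM of 4 leukotriene genes and the mean of 18 tuft cell markers (y axis, each centred on its mean over the 6 libraries) for the 3 knockout libraries and the 3 floxed control libraries. Alox5, Alox5ap and Ltc4s lie below 0 in each knockout and above 0 in each control, the tuft mean is 0.81 and 0.64 in floxed controls 1 and 3 and -0.19 in floxed control 2, and Lta4h runs from 0.023 to 0.14 in the knockouts and from -0.27 to 0.20 in the floxed controls.

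By the distance between library-centred log2 CPM profiles over 6 libraries, searched among 11606 genes, the gene nearest to Alox5 was Pou2f3, at 0.0702, followed by Sh2d7 at 0.0758 and Lrp11 at 0.122. Nearest to Alox5ap were Cd24a at 0.0490, Taf9b at 0.0686 and Nucb2 at 0.0693. Ltc4s was nearest to Gde1, Dpysl5 and 1810046K07Rik, at 0.0862 to 0.127, and Hpgds to Gm20594, Sntb1 and Hic1, at 0.127 to 0.164. These distances, in log2 units, describe 6 libraries that share their groups, and carry no test.

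Blood cells that can express Alox5, Alox5ap, Ltc4s and Hpgds were gauged by their own markers. Endothelial markers summed to 1.85 to 2.14 CPM in the knockouts and 2.49 to 4.53 CPM in the floxed controls, and smooth muscle markers to 4.04 to 4.81 CPM in the knockouts and 1.59 to 5.72 CPM in the floxed controls. Of the epithelial lists, the enteroendocrine one summed to 358 to 494 CPM in the knockouts and 568 to 891 CPM in the floxed controls, and the goblet one to 7400 to 11600 CPM in the knockouts and 12200 to 18100 CPM in the floxed controls. Mast cell markers summed to 10.6, 15.6 and 4.76 CPM in the knockouts, against 14.1, 11.1 and 14.6 CPM in the floxed controls. Of the 8 in the table, 2 were high enough to test, with neither passing. The list was led by Mcpt1, at 7.0, 11.3 and 3.97 CPM in the knockouts, against 8.21, 7.21 and 10.4 CPM in the floxed controls. Cpa3, another marker of the list, stayed at or under 0.429 CPM in the knockouts and 0.459 CPM in the floxed controls. The macrophage list summed to 65.0, 46.7 and 33.9 CPM in the knockouts, against 46.1, 61.8 and 38.7 CPM in the floxed controls. Much of that was Itgam, at 40.7, 26.8 and 16.7 CPM in the knockouts, against 26.9, 34.6 and 15.7 CPM in the floxed controls. Of the 13 in the table, 7 were too low to test, among them Adgre1, at or under 0.107 CPM in every library. The neutrophil list summed to between 4.37 and 6.52 CPM in the knockouts and between 5.61 and 5.95 CPM in the floxed controls. Of the 6 macrophage markers tested, 3 were negative and 3 positive, and the sum hides Lyz2, which stood at 2.25, 2.22 and 1.72 CPM in the knockouts, against 5.03, 4.03 and 6.93 CPM in the floxed controls, with no overlap (log2 fold change -1.35 ± 0.31; adjusted p = 0.124 by edgeR and 0.0152 by DESeq2). Lyz2 is a close paralog of the abundant crypt gene Lyz1, so the split of reads between them is uncertain. Csf1r, a macrophage receptor, had a log2 fold change of -0.78 ± 0.55. The other macrophage markers tested lay nearer 0 or above it: C1qa at -0.015 ± 0.476, Cd14 at 0.094 ± 0.319, Itgam at 0.12 ± 0.334 and Cd68 at 0.415 ± 0.34. B and plasma cell markers, led by Jchain, summed to 13.7, 8.61 and 7.74 CPM in the knockouts, against 50.6, 11.3 and 34.4 CPM in the floxed controls. Lymphocyte markers were high in floxed controls 1 and 3. Alox5, Alox5ap, Ltc4s, Ptgs1, Hpgds, Ptges and Hpgd were also highest in those libraries. Lyz2, whose reads are uncertain, was low in the knockouts, while the 6 macrophage markers tested had a median log2 fold change of 0.04. The part of blood cells in the results was not tested. With floxed control 2 as the one control, the log2 fold changes were -0.51 for Alox5, -0.48 for Alox5ap and -0.43 for Ltc4s, against -1.12, -1.04 and -0.92 with all libraries. That library was the lowest control for each of the 3 genes and was low in tuft as well as lymphocyte markers, so these values do not separate the cell types.

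Promoters are shown for Alox5, Ltc4s and Hpgds, members at lower levels in the knockouts for which the RefSeq table (GRCm38.p6) holds an entry; 9 of the 10 members had one. Each is the 250 bases before the transcript start that the table uses, on the gene's strand, 5′ to 3′: Alox5 at chr6:116461179-116461428 (minus strand), Ltc4s at chr11:50238533-50238782 (minus strand) and Hpgds at chr6:65144731-65144980 (minus strand). The Hpgds window lies inside the gene's annotated span and precedes an inner start, as do the windows of Ptgs1 and Ptges and the second Pla2g4a window. Those of Alox5 and Ltc4s precede the outer start. Capitals mark matches on either strand to the octamer ATGCAAAT, bound by POU factors, the family of Pou2f3, or to the GC box GGGCGG, bound by Sp1; no 2 matches overlap.
Alox5: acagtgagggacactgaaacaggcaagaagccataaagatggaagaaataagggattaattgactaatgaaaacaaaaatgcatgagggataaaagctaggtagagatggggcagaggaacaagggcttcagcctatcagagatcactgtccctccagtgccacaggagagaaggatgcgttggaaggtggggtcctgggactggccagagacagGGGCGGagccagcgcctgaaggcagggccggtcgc
Ltc4s: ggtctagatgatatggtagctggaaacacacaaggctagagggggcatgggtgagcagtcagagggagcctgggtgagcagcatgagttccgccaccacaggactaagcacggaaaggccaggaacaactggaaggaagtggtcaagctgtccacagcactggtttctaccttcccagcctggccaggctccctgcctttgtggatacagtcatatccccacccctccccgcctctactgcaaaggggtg
Hpgds: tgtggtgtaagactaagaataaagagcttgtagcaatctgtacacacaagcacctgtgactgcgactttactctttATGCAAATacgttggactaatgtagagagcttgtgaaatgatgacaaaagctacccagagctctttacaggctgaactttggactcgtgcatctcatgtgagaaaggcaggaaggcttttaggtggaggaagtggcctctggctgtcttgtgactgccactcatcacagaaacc

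The octamer was found in the Hpgds window, beginning 174 bases before that inner start, and in none of the other member promoters searched. Of all 32851 promoter entries, 1.6% hold it. A GC box was found in the promoters of Alox5, at 35 bases before the start, Ptges, Ptgs2 and Hpgd, and in 32.7% of all entries. The TATA box TATAAA was found upstream of the second Pla2g4a start, an inner one, against 12.4% of all entries. That match begins 200 bases before the start and lies on the other strand. No member promoter held the AP-1 site TGANTCA or the cAMP response element TGACGTCA. A match is a run of letters in this window and says nothing of binding, and the Ltc4s promoter held none of the 5.

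The rest of the eicosanoid pathway was read from lists set by role: 52 of 56 further genes were in the table and 36 were high enough to test. By edgeR 0 of them passed, where 0.0155% of all genes tested did. An unadjusted p under 0.05 by edgeR was found for 3 on the lower side, against 9.63% of all genes tested. On the higher side it was found for 3, against 4.09%. DESeq2 called 1, Abcc4, lower in the knockouts, against 2.4% of its genes on that side. The groups did not overlap for 4 on the lower side, against 10.3% of all genes tested, and for 3 on the higher side, against 6.99%. The median log2 fold change of the 36 was -0.15, and 23 were negative, against 51.9% of all genes tested.

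Among genes of arachidonate release and reacylation, 11 were tested, with 8 negative. The secreted phospholipase gene Pla2g10 stood at 6.09, 3.27 and 3.47 CPM in the knockouts, against 6.90, 6.49 and 10.7 CPM in the floxed controls, with no overlap (log2 fold change -0.90 ± 0.31, adjusted p = 0.238 by edgeR). Pla2g12a, another secreted phospholipase gene, stood at 20, 15.6 and 22.6 CPM in the knockouts, against 22.6, 30.9 and 32.9 CPM in the floxed controls, with knockout 3 just below floxed control 1 (log2 fold change -0.57 ± 0.21, adjusted p = 0.254 by edgeR). Pla2g4b, a relative of Pla2g4a, stood higher, at 9.01, 9.92 and 9.49 CPM in the knockouts, against 6.21, 8.06 and 5.46 CPM in the floxed controls (log2 fold change 0.52 ± 0.22, adjusted p = 0.320 by edgeR). Anxa1, whose protein restrains phospholipase A2 and is itself a known ligand of the human receptor FPR2, was too low to test, at 0.451, 0.0537 and 0.168 CPM in the knockouts, against 0.524, 0.197 and 0.591 CPM in the floxed controls.

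Lipoxygenases beyond Alox5 were low, with Alox15, which can take part in lipoxin synthesis, at 0.916, 1.21 and 2.29 CPM in the knockouts, against 1.08, 1.22 and 1 CPM in the floxed controls (log2 fold change 0.42 ± 0.43, adjusted p = 0.726 by edgeR). Alox8 had a log2 fold change of -0.49 ± 0.52 and the epoxide hydrolase Ephx2 one of 0.075 ± 0.28, neither passing. Of the genes listed for leukotriene conversion and export, 6 were tested and 0 passed. Mgst2, a microsomal glutathione transferase that can also make leukotriene C4, stood at 119, 119 and 161 CPM in the knockouts, against 68.0, 117 and 110 CPM in the floxed controls (log2 fold change 0.44 ± 0.22, adjusted p = 0.419 by edgeR). The groups did not overlap, but floxed control 2 lay just under knockouts 1 and 2. Dpep1, the dipeptidase that turns leukotriene D4 into E4, and Cyp4f14, an omega-hydroxylase, had log2 fold changes of -0.33 ± 0.25 and -0.28 ± 0.21.

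Of the other prostanoid synthases, 6 were tested and 0 passed. Ptges3, the cytosolic prostaglandin E synthase that also serves as an Hsp90 co-chaperone, stood at 110, 130 and 145 CPM in the knockouts, against 92.4, 113 and 79.2 CPM in the floxed controls (log2 fold change 0.44 ± 0.18, adjusted p = 0.329 by edgeR). Akr1b3 and Ptges2 had log2 fold changes of -0.16 ± 0.17 and -0.085 ± 0.28. Abcc4, an exporter of prostaglandin E2 and cyclic nucleotides, stood at 5.76, 6.03 and 4.32 CPM in the knockouts, against 12.6, 7.66 and 11.2 CPM in the floxed controls. The Abcc4 groups did not overlap (log2 fold change -0.96 ± 0.25; adjusted p = 0.152 by edgeR and 0.0463 by DESeq2), and floxed control 2 was again the lowest control. Slco2a1, the prostaglandin uptake carrier, had a log2 fold change of -0.40 ± 0.20 and Akr1c19 one of 0.35 ± 0.25, neither passing.

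Of 14 prostanoid and leukotriene receptors listed, 12 were in the table and 5 were high enough to test. Ptger4, the prostaglandin E2 receptor EP4, was the most abundant in CPM, at 25.6, 24.1 and 20.7 in the knockouts and 30.6, 24.0 and 26.6 in the floxed controls, and the groups overlapped. Ptger1, the EP1 receptor, stood at 4.56, 6.07 and 5.76 CPM in the knockouts, against 3.62, 4.42 and 2.05 CPM in the floxed controls, with no overlap (log2 fold change 0.69 ± 0.31, adjusted p = 0.359 by edgeR). Ptgdr, a prostaglandin D2 receptor, had a log2 fold change of -0.996 ± 0.54 and Ltb4r1, the leukotriene B4 receptor, one of 0.52 ± 0.36, neither passing. The cysteinyl leukotriene receptor genes Cysltr1 and Cysltr2 stayed at or under 0.300 CPM in the knockouts and 0.525 CPM in the floxed controls, and were not tested.

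**Figure D4:**
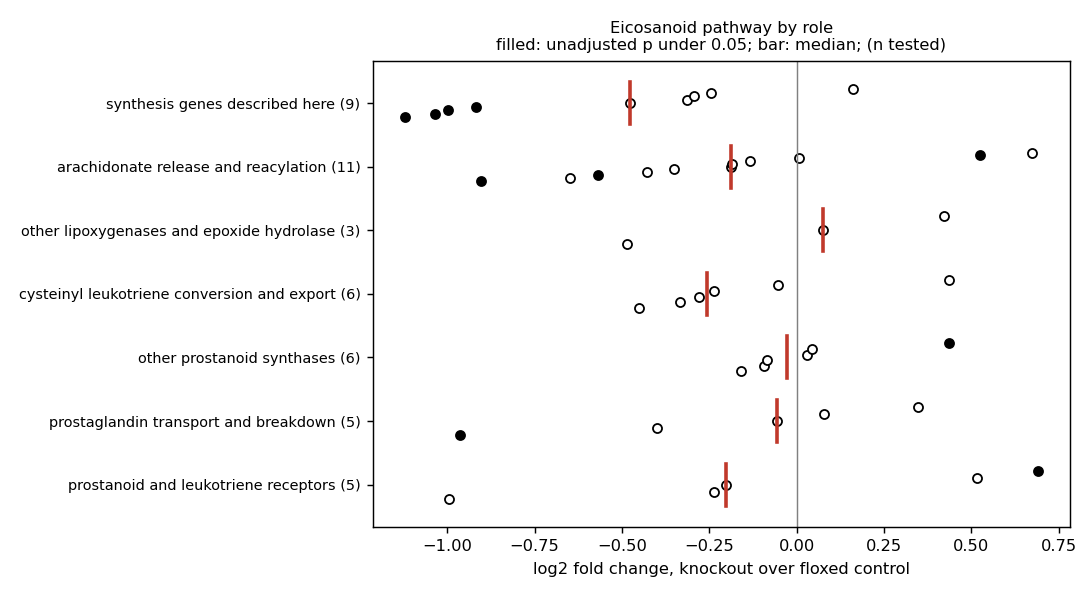
Log2 fold changes, knockout over floxed control (x axis), of the 9 synthesis genes tested and of 36 further pathway genes by role, 1 point a gene, filled where the unadjusted p was under 0.05, with a bar at each median. The synthesis genes have a median of -0.48, and the other roles have medians from -0.26 to 0.075.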

How the data were processed

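RNA of 6 crypt libraries was read as 50 bp single ends by DNBSEQ (labels' protocols) and mapped to mm10, per the submitters' processing notes; aligner, counter and strand setting were not given there. The authors deposited estimated counts per gene, not normalised, with 31.1% to 35.2% of values in a library not whole. The planned test assumed whole counts, so values were rounded.

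All genes were tested together with edgeR 4.0.16 in R 4.3.3: filterByExpr, TMM scaling, robust quasi-likelihood fits and Benjamini-Hochberg adjustment over 12943 genes at 0.05. CPM uses TMM-scaled library sizes, and intervals are 95%. Alternatives were DESeq2 1.42.0 (no adjusted p for 251 genes), limma-voom (limma 3.58.1), other scaling and filters, a replicate block and libraries left out. Ratios used exact permutation tests (scipy 1.17.1). No 2 libraries were duplicates, and the scripts were checked on simulated data. Lengths are the longest in GENCODE M21, and coordinates are RefSeq's.

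Members and lists were chosen with earlier results of these data known. Named genes were the members, the 3 smallest p of each pathway list, Dclk1, Pou2f3 and Trpm5, the most abundant gene of other marker lists the text turns on, and the 3 nearest profiles (log2 CPM with a prior count of 2, average at least 1). Anxa1, Ptger4, Cpa3, Lyz2, Csf1r, C1qa, Cd14, Cd68, Adgre1, Gnat3, Il25, Cysltr1, Cysltr2 and Gm38880 were named after they were seen.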

Additional observations from a re-analysis of the deposited data

How the results depend on the processing

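The counts of calls depended on the test and on floxed control 2. Over all genes, 2 were called by edgeR, 342 by DESeq2, 1 by limma-voom, 0 with DESeq2 size factors in edgeR and 67 with no filter beyond 1 count. Leaving out single libraries gave 0 to 955 genes, 0 to 3 members, 0 to 1 further pathway gene and a median of the members from -0.78 (without floxed control 2) to -0.20 (without floxed control 1). Without floxed control 2 the members Alox5, Alox5ap and Hpgds were called (adjusted p = 0.0254, 0.0138 and 0.0401 by edgeR). DESeq2 called 2 members and 1 further pathway gene. Of the settings added after the data were seen, leaving out floxed control 2 and knockout 1 gave 920 genes, 2 members, 2 further pathway genes and a median of -0.84. Leaving out both floxed controls 1 and 3 gave 12 genes, 0 members and a median of -0.046. In that setting Lta4h, Ptgs1, Ptges, Pla2g4a and Hpgd changed sign, to -0.046, 0.72, 0.43, 0.28 and 0.48 on the log2 scale. Without floxed control 1, Ptgs1, Ptges and Pla2g4a changed sign, to 0.17, 0.054 and 0.057; over single libraries left out they ran from -0.64 to 0.17, -0.78 to 0.054 and -0.43 to 0.057. None of these members had passed. Of 144 values of single members under 16 alternatives, 129 kept their sign and side of the threshold. Alox5, Alox5ap, Ltc4s and Hpgds stayed negative in each of the 16. The cause of these shifts was not tested. Replicate number as a block gave 39 genes and 0 members; same-numbered libraries deviated from their group means with correlations of -0.177, -0.272 and 0.068, so the numbers were not taken to pair the samples. Depth limits Ptges, Hpgds and Ltc4s most, and Ptgs2 could not be tested.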

Other observations

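For the members with an unadjusted p above 0.05, the nearest profiles were, for Lta4h, Zwint, Hnrnpl and Eif3b at distances of 0.0226 to 0.0290 log2 units over the 6 libraries. For Ptgs1 they were Map2, Zfp281 and LOC115488029 at 0.0939 to 0.128, and for Ptges Celf2, Dgki and Dgkg at 0.0729 to 0.1. For Pla2g4a they were Fem1c, Nbea and Ganc at 0.0504 to 0.0634, and for Hpgd Efr3b, BC024139 and Mpp1 at 0.0420 to 0.0741.

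The spread between control libraries was wider than that between knockouts for 8 of the 9 members tested. As a coefficient of variation, Ptgs1 had 5.89% in the knockouts and 51.8% in the floxed controls, Ptges 10% in the knockouts and 52.7% in the floxed controls, and Hpgds 20.8% in the knockouts and 46.7% in the floxed controls. Alox5 was the exception, at 35.9% in the knockouts and 30.0% in the floxed controls.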
